A study of Mus musculus with 4 samples.

Results

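The conventional dendritic cells of tumour-bearing mouse lungs were 191 of 14411 cells in 4 single-cell RNA libraries. They were chosen by their transcripts alone. A cell needed at least 5 unique molecular identifiers (UMIs, the tags that count single RNA molecules) of H2-Ab1, an MHC class II chain, and at least 2 UMIs summed over Flt3, Zbtb46, Xcr1, Clec9a, Cd209a, Clec10a, Fscn1 and Ccl22. Cells with a UMI of Siglech, with more than 1 UMI summed over Cd79a and Ms4a1 or over the Cd3 genes, with more than 2 over the C1q genes or with more than 1 over Treml4, Cd300e and Adgre4 were left out. These genes mark plasmacytoid dendritic cells, B cells, T cells, macrophages and nonclassical monocytes. A cell also needed 500 UMIs, 300 genes and at most 10% mitochondrial UMIs.

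Mouse small cell lung cancer cells had been implanted into the lung, and the perfused whole lung was digested and sorted for live cells, so tumour and surrounding lung were not separated. Control mice were given vehicle with isotype IgG, the anti-PD-1 group an antibody against the checkpoint receptor PD-1 at 200 µg per mouse 3 times a week, the YKL-5-124 group an inhibitor of the kinase CDK7 at 10 mg/kg on weekdays, and the combination group both agents. Each group was 1 library made with the 10x 3′ version 2 chemistry, so no treatment comparison has a replicate or a p-value, and the intervals given are exact 95% intervals that cover counting error only. The labels used here give no strain, age, number of mice or length of treatment.

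Conventional dendritic cells take up antigen, process it and show it to T cells. The cDC1 type, which carries the chemokine receptor XCR1 and depends on the transcription factors IRF8 and BATF3, is known for presenting antigen of other cells to CD8 T cells, and the cDC2 type, which carries lectins such as CD209a and CLEC10A, for presenting to CD4 T cells. Both can mature, switch on the chemokine receptor CCR7 and move to the draining lymph node, and mature cells in tumours carry FSCN1 and CCL22 together with ligands that stimulate and ligands that restrain T cells.

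The control library held 47 such cells of 3481, anti-PD-1 37 of 2736, YKL-5-124 49 of 4152 and the combination 58 of 4042. Their median depth was 5661, 6002, 5984 and 7284.5 UMIs, against 1940, 1939, 2001 and 2239 over all cells, so the members were among the deeper cells. Few cells lay near the H2-Ab1 threshold and more near that of the 8 genes. Of the members, 6 had 5 to 9 H2-Ab1 UMIs and 28 had exactly 2 UMIs of the 8 genes. Just outside, 19 cells had 3 or 4 H2-Ab1 UMIs, 30 had 1 UMI of the 8 genes, and 127 met both criteria and were left out by a gate of another cell type, most often the Cd3 genes (70 cells) or the B cell genes (39 cells). H2-Ab1 was the most abundant gene of the rule, with a median of 98 UMIs per member, while Flt3 was seen in 97 members, Cd209a in 74, Fscn1 in 52, Xcr1 in 25 and Zbtb46 in 16. These values chose the cells and support nothing further. The cell barcodes of any 2 libraries overlapped in 469 to 537 cases where random draws would give 12.9 to 22.8. No barcode was a member in more than 1 library, and wherever a member's barcode was also a cell in another library (4, 2, 2 and 1 members), the member held more UMIs. The other library held at most 54.1% as many, for a control member, and at most 4.85% for the members of the treated libraries.

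Each member was assigned by whichever of the pairs Xcr1 with Clec9a (cDC1), Cd209a with Clec10a (cDC2) or Fscn1 with Ccl22 (migratory) had the most UMIs, if at least 2 and more than both others. This gave 21 cDC1, 77 cDC2 and 68 migratory members and left 25 unassigned, and 14 members had 2 or more UMIs of more than 1 pair. In the order control, anti-PD-1, YKL-5-124 and combination, which holds for all lists of 4 values that follow, the cDC1 numbered 10, 5, 2 and 4. The cDC2 numbered 17, 17, 20 and 23. The migratory cells numbered 12, 11, 19 and 26. The cDC2 count was the most even of the 3 types, and the migratory count was highest in the combination.

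**Figure D1:**
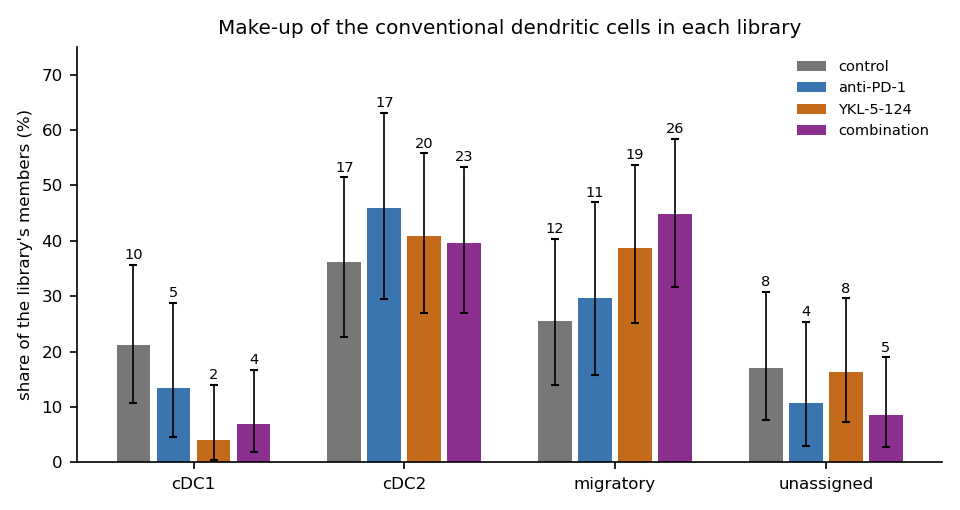
Share of members in each type, in percent of all members of a library, for the 4 libraries; numbers give the cells and error bars are exact binomial 95% intervals that cover counting error only. The migratory share was 25.5% in control and 44.8% in the combination and the cDC1 share 21.3% and 6.90%, with intervals that overlap.

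The assignment was set against gene lists that hold none of the 8 genes. On these, all 21 cDC1 had more UMIs of the cDC1 list (Irf8, Cadm1, Wdfy4, Batf3 and others) than of the cDC2 list, with medians of 54 and 4 UMIs. Of the 77 cDC2, 74 had more of the cDC2 list (Mgl2, Sirpa, Ms4a6c, Cd7 and others), with medians of 31 and 5. The migratory cells were mixed: 47 had more UMIs of the cDC2 list, 19 more of the cDC1 list and 2 were equal. Their medians were low, at 11.5 UMIs of the cDC2 list and 7 of the cDC1 list. The 68 include the 8 migratory cells with tumour RNA described below. Of the unassigned cells 13 had more of the cDC2 list and 12 more of the cDC1 list. The cDC1 and cDC2 names thus stood on genes outside the rule. In the migratory and unassigned groups neither list led in all cells, and with so few UMIs the lists do not settle the type of single migratory cells.

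Tumour RNA was present in part of the migratory group. Of the members, 9 had at least 10 UMIs of tumour markers (a list of 14 genes) that stand for the implanted neuroendocrine cells, such as Chga and Epcam, and 1 of them, in the YKL-5-124 library, also had lung epithelial RNA. They were 4 control, 2 anti-PD-1, 3 YKL-5-124 and 0 combination cells, and 8 of the 9 were migratory by the rule. Their median depth was 38781 UMIs against 6217.5 in the other 182, so they held 22.8% of all member UMIs and 44.8% of those of the migratory cells. Summed over all members of a library, the 14 tumour markers were at 1580.5, 2094, 1282 and 79.7 CPM (UMIs scaled to one common total for every group of cells), lowest in the combination. A doublet score left out 2 members in all, both in the YKL-5-124 library. Whether the 9 are pairs of a dendritic and a tumour cell was not tested. Since their number differed between the libraries, levels and treatment ratios are given for the 182 other members unless all members are named, a choice made after the data were seen. Values of the comparisons with macrophages, nonclassical monocytes and plasmacytoid cells are over all members unless stated.

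Markers of the lymphoid and granulocytic cells of the lung were low in the members. T cell markers summed to 24.3 to 112 CPM over all members of a library, with 1 to 6 of the 12 at 0. B and plasma cell markers summed to 13.7 to 51.3 CPM and neutrophil markers to 5.61 to 181 CPM. In the free RNA of the libraries, taken from barcodes of 10 to 100 UMIs, these 3 lists were at 1514 to 2872, 771 to 2046 and 1931 to 7736 CPM. The T cell list holds the Cd3 genes and the B cell list Cd79a and Ms4a1, which the rule capped. Low sums of the T and B cell lists were thus in part set by the choice of cells. NK cell markers were at 921, 299.6, 418 and 135 CPM in cDC2, highest in control.

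**Figure D2:**
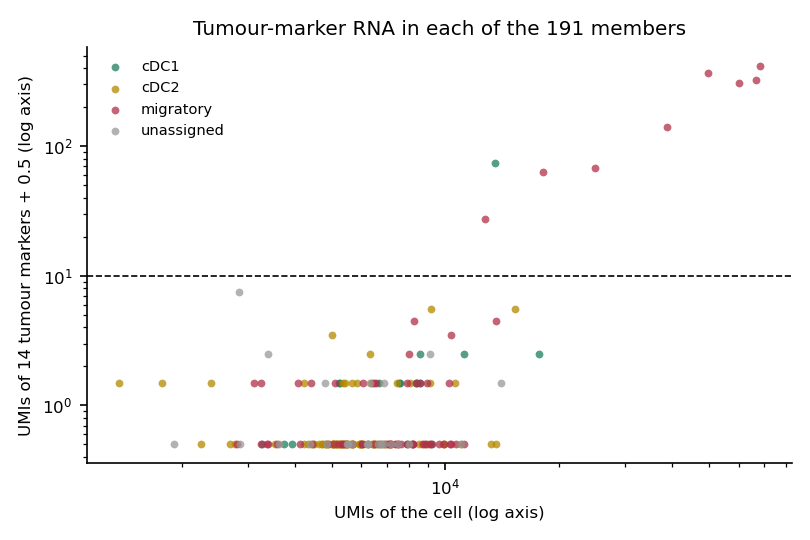
UMIs of the 14 tumour markers (plus 0.5) against total UMIs of each of the 191 members, both on log axes, coloured by type. The dashed line marks 10 UMIs, and the 9 cells above it, with a median of 38781 UMIs, include the deepest members.

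The cDC1 showed high Irf8, the transcription factor they need to develop. In CPM over the summed cells of a type, Irf8 was at 1923, 2266, 3127 and 1563 in cDC1, against 75.9, 45.4, 204 and 49.2 in cDC2. Wdfy4, which cDC1 need for presenting antigen of other cells, was at 205, 276, 500.3 and 139.6 in cDC1 and 119, 81.7, 55.7 and 86.0 in cDC2. Cadm1, an adhesion molecule of cDC1, was at 347, 166, 188 and 83.7 in cDC1 and at 0, 9.08, 18.6 and 0 in cDC2. For each of these 3 genes the lowest cDC1 library lay above the highest cDC2 library. Only control and anti-PD-1 had the 5 cells of each type that a fit needed, so cDC1 was not tested against the others.

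Mgl2, Ms4a6c and Lyz2 were at higher levels in cDC2 than in cDC1. Mgl2, a galactose-binding lectin, was at 1214, 663, 557 and 2225 CPM in cDC2 against 0 to 55.8 in cDC1. Ms4a6c, a membrane protein of the MS4A family, was nearly level over the cDC2 libraries at 899, 926, 947 and 934 CPM, against 47.3 to 82.9 in cDC1. Lyz2, the lysozyme of phagocytes, was at 5039, 8796, 4208 and 4204 CPM in cDC2 and 307 to 1923 in cDC1. For none of these 3 genes did the libraries of the types overlap. The unassigned cells lay between for Irf8, at 1241, 576, 1217 and 912 CPM, and for Ms4a6c, at 211, 624, 507 and 503 CPM.

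**Figure D3:**
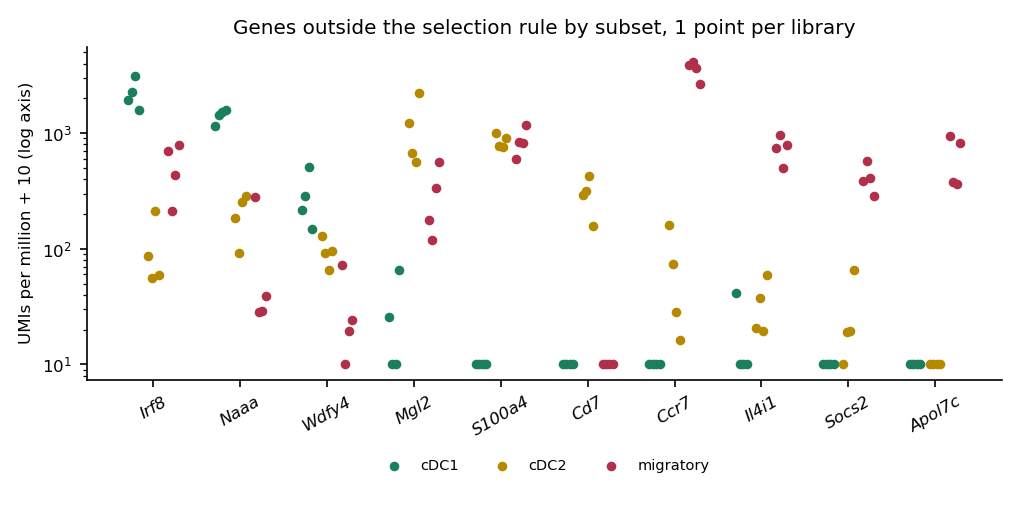
Level of 10 genes as CPM + 10 on a log axis, by type (cDC1, cDC2, migratory) with 1 point per library, without the 9 cells with tumour RNA. Irf8 is highest in cDC1, Mgl2 in cDC2 and Ccr7 in migratory cells, in each library.

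Migratory cells were compared with cDC2 in all 4 libraries, with the UMIs summed per type and library, the library as a block and edgeR's quasi-likelihood test at an adjusted p (Benjamini-Hochberg over all genes tested) under 0.05. Without the cells that held tumour RNA, 1406 genes passed the filter on low counts, 239 of them were higher in migratory cells (17.0%) and 213 lower (15.1%). Over all members, 2236 genes passed, with 112 higher (5.01%) and 206 lower (9.21%), and 209 genes were called with the same sign in both fits. The fit over all members moved with single libraries: without YKL-5-124 it called 15 higher and 24 lower, without control 47 and 71, without anti-PD-1 78 and 127, and without the combination 396 and 390. Among the 182 cells the counts without any 1 library were 192 to 236 higher and 137 to 196 lower, the smallest count of lower genes coming without the combination. The genes that set the types were left out of these counts. The 4 libraries, which were treated differently, served as the replicates, so the p-values measure the spread of the type difference over them.

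Ccr7, the receptor that guides mature dendritic cells to the lymph node, was at 3889, 4111, 3649 and 2649.6 CPM in migratory cells. In cDC2 it was at 152, 63.5, 18.6 and 6.15 CPM. The lowest migratory library was far above the highest cDC2 library, and the log2 fold change was 6.28 ± 0.39 (SE, edgeR adjusted p = 1.43e-06, higher in 4 of 4 libraries). Over all members it was 5.13 ± 0.82 (edgeR adjusted p = 0.00948, up to 0.0662 without 1 library).

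Some genes were seen in migratory cells and in no cDC2. Apol7c, an apolipoprotein L family member, had 274 UMIs in migratory cells and 0 in cDC2, at least 103-fold higher against a floor of 3 counts over the group. H2-M2, an MHC class Ib gene, had 178 and 0 UMIs (at least 67.0-fold higher), Nudt17 117 and 0 (at least 44.1-fold higher) and Cacnb3, a calcium channel subunit, 113 and 0 (at least 42.6-fold higher). Each of the 4 had UMIs in migratory cells of every library.

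Ccl5, a chemokine for T cells, was at 9588, 2679, 7092 and 2559 CPM in migratory cells and 401, 36.3, 27.9 and 24.6 in cDC2, and the log2 fold change was 6.05 ± 0.39 (edgeR adjusted p = 1.59e-06). A large part of its UMIs came from single cells, 224 of 461 in control, 88 of 146 in anti-PD-1 and 402 of 758 in YKL-5-124. Il12b, the shared chain of interleukins 12 and 23, had no UMI in any cDC2. In migratory cells it had 0, 37, 75 and 130 UMIs, in 2 of 9 cells of anti-PD-1, 3 of 16 of YKL-5-124 and 8 of 26 of the combination. Single cells held 36, 56 and 56 of these UMIs, so the level rested on few cells. Among the 182 cells it did not pass the filter on low counts.

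The list of genes of mature dendritic cells held 43 genes. Of 34 that passed the filter, 33 were higher in migratory cells and 0 lower, with a median log2 fold change of 3.29 against -0.01 over all genes tested (26 and 0 of 34 over all members). Of all genes tested 17.0% were higher and 15.1% lower (5.01% and 9.21% over all members). The list is one for the state that Fscn1 and Ccl22 mark, so its direction is not independent of the assignment, and a gene could pass the filter through 1 type alone. Il4i1, an amino acid oxidase that restrains T cells, was at 728, 954, 487 and 775 CPM in migratory cells and 10.8, 27.2, 9.29 and 49.2 in cDC2 (4.92 ± 0.34, edgeR adjusted p = 2.54e-06). The libraries of the types were far apart.

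Cd274 and Cd200, genes of ligands that restrain immune cells, and the co-stimulatory genes Cd40 and Cd86 were higher in the summed migratory cells. Whether single cells held both kinds was not tested. Cd274, which encodes PD-L1, the ligand of PD-1, was at 374, 184, 318 and 191 CPM in migratory cells against 32.5, 0, 9.29 and 61.5 in cDC2, a log2 fold change of 3.23 ± 0.51 (edgeR adjusted p = 0.000584). Cd200, a ligand that restrains myeloid cells, had 4.74 ± 0.48 (edgeR adjusted p = 3.65e-05). Cd40, through which helper T cells act on dendritic cells, was at 104, 184, 225 and 325 CPM against 21.7, 27.2, 18.6 and 49.2 (2.96 ± 0.34, edgeR adjusted p = 8.58e-05). For Cd274 and Cd40 no migratory library reached down to a cDC2 library. Cd86, a ligand of CD28, had 1.04 ± 0.28 (edgeR adjusted p = 0.0146, over all members -0.13 ± 0.56 with adjusted p = 0.889), a call that leaving out 1 library ended (adjusted p up to 0.188). Of 7 tested genes of the co-stimulatory and inhibitory list of 20, 5 were higher and 1, Cd48, lower, beside 17.0% and 15.1% of all genes. Over all members 2, Cd200 and Cd274, were higher and 2, Vsir and Cd48, lower, beside 5.01% and 9.21%.

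**Figure D4:**
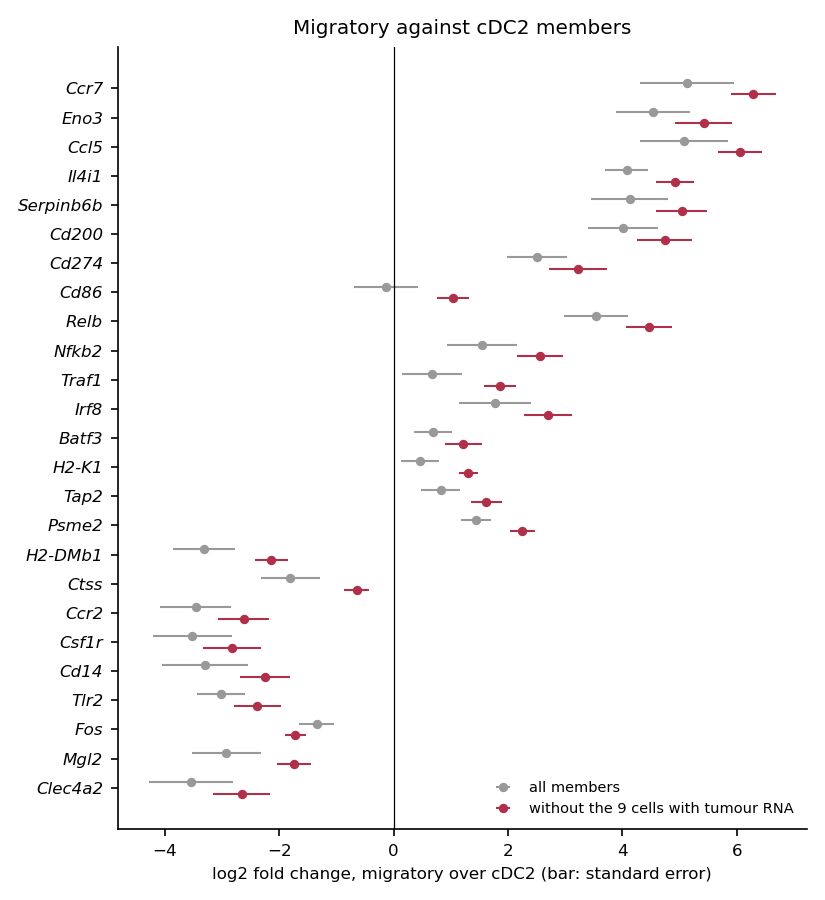
Log2 fold change of migratory over cDC2 members for selected genes, with standard errors, over all members and without the 9 cells with tumour RNA. Genes without a UMI in 1 type are not drawn. Ccr7 is at 5.13 over all members and 6.28 without those cells.

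Regulators of the NF-kB pathway were higher too. Relb, the NF-kB subunit of the noncanonical arm, was at 519.9, 624, 290.1 and 339.6 CPM in migratory cells and 0, 45.4, 9.29 and 24.6 in cDC2, a log2 fold change of 4.46 ± 0.41 (edgeR adjusted p = 1.85e-05). Nfkb2, which encodes its partner, had 2.56 ± 0.40 and the adaptor gene Traf1 1.86 ± 0.28. On the TNF and NF-kB list of 21 genes, 9 of 14 tested were higher and 0 lower, beside 17.0% and 15.1% of all genes. Over all members 2 of 17 were higher, beside 5.01% of all genes. Irf8 was at 686, 202, 421 and 784 CPM in migratory cells, below every cDC1 library and above cDC2 within each library (2.70 ± 0.43, edgeR adjusted p = 0.000602). Batf3 had 1.22 ± 0.32 (edgeR adjusted p = 0.0135, up to 0.0575 without 1 library). Over all members neither gene passed the test (Irf8 1.78 ± 0.63, edgeR adjusted p = 0.0998, and Batf3 0.68 ± 0.33, edgeR adjusted p = 0.194).

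Most tested genes of MHC class I presentation were higher in migratory cells and the class II exchange factors lower. Of 17 tested class I genes, 11 were higher and 1, Pdia3, lower (1 and 1 of 18 over all members). These counts stood beside 17.0% and 15.1% of all genes (5.01% and 9.21% over all members). H2-K1, a class I heavy chain, was at 2079.8, 1670.0, 1591 and 1420.4 CPM against 780.2, 917, 706 and 664 in cDC2 (1.30 ± 0.16, edgeR adjusted p = 0.000142, and 0.46 ± 0.33 with adjusted p = 0.377 over all members). Psme2, a proteasome activator subunit, had 2.25 ± 0.22 and Tap2, of the peptide transporter, 1.62 ± 0.27. H2-DMb1, a chain of the factor that loads peptide onto class II, was at 603, 128, 468 and 330.0 CPM in migratory cells against 1766, 2024, 1829.8 and 1708 in cDC2 (-2.14 ± 0.29, edgeR adjusted p = 0.000219), and H2-DMa, the other chain, had -1.51 ± 0.23. For H2-Aa, the partner of the H2-Ab1 that chose the cells, the log2 fold change was 0.02 ± 0.15 (edgeR adjusted p = 0.934).

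Several receptors and sensors that monocytes also carry were lower in migratory cells, and each gene named here passed the test. Ccr2, the receptor for CCL2, was at 41.6, 0, 28.1 and 86.1 CPM against 228, 399, 446 and 301 in cDC2 (-2.62 ± 0.45, edgeR adjusted p = 0.00104). Csf1r, the receptor of a macrophage growth factor, had -2.83 ± 0.51, Cd14, a co-receptor for lipopolysaccharide, -2.25 ± 0.44 and Tlr2, a sensor of bacterial lipoproteins, -2.38 ± 0.42. Cd7 had 0 UMIs in migratory cells and 129 in cDC2, at least 38.1-fold lower. Clec4b1, a C-type lectin, had -5.43 ± 0.63, Ifitm6 -3.55 ± 0.53 and the chemokine Ccl6 -3.10 ± 0.43. Plaur, the urokinase receptor, had -3.01 ± 0.42 and Ms4a6c -2.97 ± 0.47. Lyz2 had -3.79 ± 0.91 (edgeR adjusted p = 0.00769) and lost its call without 1 library (adjusted p up to 0.0516) and without the library block (adjusted p = 0.0570). The monocyte marker list summed to 1712, 1525, 2434 and 2563 CPM in cDC2 and to 63.9, 21.1, 709 and 502 CPM in all migratory cells. The macrophage marker list summed to 1344, 590.0, 789 and 897 CPM in cDC2 and to 29.1, 21.1, 107 and 234 CPM in all migratory cells. The part of both lists in these differences was not tested. Fos, an early response transcription factor, was at 624, 239, 449 and 268 CPM against 1864, 1044, 1672 and 1082 (-1.72 ± 0.18, edgeR adjusted p = 4.68e-05). Of 16 tested early response and heat shock genes, 6 were lower and 1, Klf6, higher, beside 15.1% and 17.0% of all genes.

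Against C1q-rich macrophages (121 cells), the members were higher in genes of mature dendritic cells and lower in macrophage chemokines. Over all members, 207 of 3399 genes were higher (6.09%) and 290 lower (8.53%) by edgeR's test with the library as a block. Without the members with tumour RNA 281 of 2640 were higher (10.6%) and 298 lower (11.3%). The genes of the choice of cells and the MHC class II genes were not counted. The count of higher genes was 86 without YKL-5-124, 107 without control and 119 without anti-PD-1. Ccr7 was higher by 7.93 ± 0.47 on the log2 scale (edgeR adjusted p = 8.48e-06), Traf1 by 3.04 ± 0.27 and Tnfsf9, the ligand of 4-1BB, a costimulatory receptor of T cells, by 2.67 ± 0.28. Wdfy4 was higher by 2.11 ± 0.40 (edgeR adjusted p = 0.00596). Irf8 was higher by 1.25 ± 0.32 (edgeR adjusted p = 0.0271, up to 0.122 without 1 library). Of 36 tested genes of the mature list, 22 were higher and 1, Cd63, lower over all members, and 23 and 1 of 35 without the cells with tumour RNA. Fscn1 and Ccl22, which mark the mature state, helped to choose the members, so the direction of this list is not independent of the rule. All 8 tested macrophage markers were lower, with Apoe, a lipid carrier, at -6.68 ± 0.54. The C1q genes separated the groups, so the direction of macrophage markers is not independent of the choice of cells. Of 17 tested cytokines and chemokines, 8 were lower over all members, among them Ccl2 (-4.49 ± 0.34), which draws monocytes, and Ccl24 (-6.54 ± 0.59), which draws eosinophils, and 2, Il12b and Ccl5, higher. Without the cells with tumour RNA 16 were tested, with 8 lower and 2, Ccl5 and Ebi3, higher. On the G2 and mitosis list, 6 of 15 tested genes were higher over all members and 0 of 6 without the cells with tumour RNA.

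Against nonclassical monocytes (580 cells), over all members, 558 of 4382 genes were higher in the members (12.7%) and 799 lower (18.2%). Without the members with tumour RNA 592 of 3278 were higher (18.1%) and 641 lower (19.6%). Of 37 tested genes of the mature list, 30 were higher and 2 lower over all members, and 32 and 1 of 37 without the cells with tumour RNA. Here, too, the direction of this list is not independent of the rule, which holds Fscn1 and Ccl22. Nor is that of genes of nonclassical monocytes, since Treml4, Cd300e and Adgre4 separated the groups. Batf3 was higher by 2.26 ± 0.28 and Irf8 by 1.55 ± 0.19 on the log2 scale, and Mgl2 had 822 UMIs in members and 0 in the monocytes. Csf1r (-2.88 ± 0.26), the fractalkine receptor Cx3cr1 (-2.97 ± 0.48) and the transcription factor Cebpb (-4.34 ± 0.28), which nonclassical monocytes need, were lower. So were 10 of 17 tested pattern recognition genes over all members, with the RNA sensor Tlr7 at -4.88 ± 0.56 and 1, Tmem173, higher. Without the cells with tumour RNA 7 of 14 were lower and 2, Tmem173 and Clec4n, higher. Tmem173, which encodes STING, was higher by 1.62 ± 0.35 (edgeR adjusted p = 0.00687, up to 0.0867 without 1 library).

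Against plasmacytoid dendritic cells, 7 in control, 15 in YKL-5-124 and 6 in the combination after anti-PD-1 with 3 was dropped, over all members 315 of 3054 genes were higher in the members (10.3%) and 324 lower (10.6%). Without the members with tumour RNA 336 of 2201 were higher (15.3%) and 316 lower (14.4%). The transcription factors of the plasmacytoid lineage were lower: Tcf4 had a log2 fold change of -3.64 ± 0.33, Spib -5.43 ± 0.52, Bcl11a -2.77 ± 0.53 and Irf8 -2.58 ± 0.27. Id2, the repressor of TCF4 activity, was higher by 3.85 ± 0.47 (edgeR adjusted p = 9.74e-12). All 9 tested plasmacytoid markers were lower. Siglech separated the groups, so the direction of plasmacytoid markers and transcription factors is not independent of the choice of cells. DESeq2 called fewer genes, 138 higher and 191 lower. The direction of Irf8 thus depended on the cells compared, higher than in both myeloid groups and lower than in plasmacytoid cells.

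Each treated library was set against control, and the shares in this paragraph are over all 191 members. The share of conventional dendritic cells among all cells was 1.35% in control (0.994% to 1.79%), 1.35% in anti-PD-1, 1.18% in YKL-5-124 and 1.43% in the combination. The ratios to control were 1.00 (0.633 to 1.57), 0.874 (0.574 to 1.33) and 1.06 (0.711 to 1.60). All 3 intervals hold 1, which does not show that the shares were alike. Over 13 other settings, such as other denominators, the ratios ran from 0.953 to 1.32, 0.743 to 1.03 and 0.845 to 1.54. The direction of each ratio thus turned with the setting. Within all 191 members, the migratory share was 1.16 (0.466 to 2.88), 1.52 (0.700 to 3.43) and 1.76 (0.855 to 3.82) times that of control. Over 5 other settings these ratios ran from 1.16 to 1.23, 1.28 to 1.66 and 1.76 to 2.14. Each was highest where the members with tumour RNA were left out. The cDC1 share was 0.635 (0.170 to 2.04), 0.192 (0.0204 to 0.900) and 0.324 (0.0742 to 1.12) times that of control. With 2 cDC1 in YKL-5-124 and 4 in the combination, against 10 in control, only the YKL-5-124 interval lay below 1.

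Gene levels were compared as CPM of the summed UMIs, and a gene was called higher or lower when CPM + 10 differed by more than 1.5-fold, which understates the change of low genes. The count is over the 2639 genes whose mean over the 4 libraries was 50 CPM or more, and 1 library against 1 library holds every difference between them. In such sums, fewer cells of a type and less RNA per cell cannot be told apart. In anti-PD-1 283 genes were higher (10.7%) and 286 genes were lower (10.8%). In YKL-5-124 396 genes were higher (15%) and 160 genes were lower (6.06%). In the combination 352 genes were higher (13.3%) and 258 genes were lower (9.78%). Over all 191 members the counts were 163 higher (6.18%) and 161 lower (6.10%) in anti-PD-1 and 364 higher (13.8%) and 207 lower (7.84%) in YKL-5-124. The combination then had 350 higher (13.3%) and 610 lower (23.1%), led by Gm1673, Lockd, Sox11 and Bex1, and it was the library without a member with tumour RNA. Within cDC2, over 2470 genes, they were 408 higher (16.5%) and 450 lower (18.2%) in anti-PD-1, 507 higher (20.5%) and 296 lower (12.0%) in YKL-5-124, and 450 higher (18.2%) and 359 lower (14.5%) in the combination.

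Ccl17, a chemokine that draws T cells that carry CCR4, differed from control in each treated library. It was at 1777, 1168, 3600.2 and 9974 CPM, lowest in anti-PD-1 and highest in the combination. The ratio to control was 0.658 (0.562 to 0.768) in anti-PD-1, 2.03 (1.81 to 2.27) in YKL-5-124 and 5.61 (5.09 to 6.21) in the combination. Within cDC2 the levels were 1051, 817, 1988 and 6121 CPM and within migratory cells 2891, 3028, 6839.8 and 16017, so the combination was 5.82 and 5.54 times control in the 2 types. In the migratory cells of anti-PD-1 it was 1.05 (0.831 to 1.32) times control. After thinning every cell of all members to 1000 UMIs, 27.7%, 24.3%, 40.8% and 63.8% held a Ccl17 UMI (40.4%, 40.5%, 49.0% and 67.2% unthinned). The cell with the most Ccl17 held 436 of 4383 UMIs in the combination and 112 of 438 in control. Free RNA held 32.5, 20.6, 73.0 and 258 CPM of Ccl17, and nonclassical monocytes 6 UMIs in 580 cells. All cells outside the members held 36.4, 8.87, 73.0 and 351 CPM, in the combination 6110 UMIs, and the part of RNA from other cells in these differences was not tested. Against C1q-rich macrophages, where 2, 0, 3 and 9 cells held it, the members did not pass the test (0.42 ± 0.69, edgeR adjusted p = 0.759). Mgl2, the lectin of cDC2, was at 604, 356, 390.0 and 1092 CPM, above control in the combination with a ratio of 1.81 (1.5 to 2.19). In all cells outside the members Mgl2 was at 8.96, 6.18, 6.95 and 30.8 CPM, also highest in the combination. The part of RNA from other cells in this ratio was not tested.

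The 250 bases before the start of Ccl17 are shown because its level differed from control in each treated library, and those of Cxcl10 and Isg15 as examples of the interferon-stimulated list described below. Capitals mark the letters of 2 motifs. TTCNNNNGAA, a STAT6 type motif, and GAAANNGAAA, an interferon-stimulated response element type motif, were searched on both strands. The sequences are from RefSeq on GRCm38.p6, at chr8:94810203-94810452 on the plus strand for Ccl17, chr5:92348890-92349139 on the minus strand for Cxcl10 and chr4:156200819-156201068 on the minus strand for Isg15, each written 5′ to 3′ along its gene.
Ccl17: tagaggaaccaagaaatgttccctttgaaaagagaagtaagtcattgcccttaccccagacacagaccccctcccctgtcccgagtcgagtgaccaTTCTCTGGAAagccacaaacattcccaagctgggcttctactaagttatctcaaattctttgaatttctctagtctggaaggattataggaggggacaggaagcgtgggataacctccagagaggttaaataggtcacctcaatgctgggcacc
Cxcl10: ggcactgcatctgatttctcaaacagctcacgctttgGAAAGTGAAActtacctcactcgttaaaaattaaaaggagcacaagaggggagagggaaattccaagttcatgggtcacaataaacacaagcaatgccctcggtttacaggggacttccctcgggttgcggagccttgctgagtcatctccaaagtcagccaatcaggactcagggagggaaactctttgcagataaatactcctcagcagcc
Isg15: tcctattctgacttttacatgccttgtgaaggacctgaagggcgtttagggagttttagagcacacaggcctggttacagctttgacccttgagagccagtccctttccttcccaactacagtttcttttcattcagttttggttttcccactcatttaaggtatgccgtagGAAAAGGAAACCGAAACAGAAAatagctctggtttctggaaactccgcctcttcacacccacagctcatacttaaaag
Ccl17 held TTCTCTGGAA at position -154 from its start. Cxcl10 held GAAAGTGAAA at -213, and Isg15 held 3 overlapping matches at -78, -72 and -66, shown as 1 run. Of 27025 promoters of this length, 5.86% held TTCNNNNGAA and 3.04% GAAANNGAAA. Of the 30 matched genes of the mature list, 4 (13.3%) held TTCNNNNGAA (Apol7c, Bcl2l14, Ccl17 and Pdcd1lg2) and 2 (6.67%) GAAANNGAAA. Of the 36 matched interferon-stimulated genes, 5 (13.9%) held TTCNNNNGAA and 20 (55.6%) GAAANNGAAA. The share with TTCNNNNGAA was thus much the same in the mature and the interferon-stimulated list. A match is a string of letters and was not tested as a site.

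Pitpna and Ccdc88a, which were among the genes that led the anti-PD-1 comparison, were lowest in control. Pitpna, a phosphatidylinositol transfer protein, was at 77.1, 248, 197 and 250.3 CPM, in 14, 22, 31 and 39 cells with no more than 9 UMIs in any cell of the combination and 6 in any of anti-PD-1. Its ratios to control were 3.22 (1.88 to 5.74), 2.55 (1.5 to 4.54) and 3.25 (1.98 to 5.60). Ccdc88a, an actin-binding protein of cell migration, was at 97.4, 275, 189.8 and 250.3 CPM and had ratios of 2.83 (1.74 to 4.74), 1.95 (1.19 to 3.29) and 2.57 (1.64 to 4.18). Eny2, another of the leading genes, was at 36.5, 135, 62.1 and 93.3 CPM. Since the 3 comparisons share the control library, these ratios are not separate evidence. In all cells outside the members Pitpna was at 45.8, 74.4, 86.2 and 129 CPM, also lowest in control. Ccdc88a was there at 184, 192, 169 and 182 CPM, lowest in YKL-5-124. The part of RNA from other cells in these ratios was not tested. Zeb2, a transcription factor that restrains cDC1 development, was at 65.0, 209, 111 and 98.3 CPM in cDC2 and highest in anti-PD-1, at 3.21 (1.27 to 9.64) times control. Cd81, a tetraspanin among the genes that led the lower side of the combination, was at 292, 139.8, 110.5 and 56.9 CPM, highest in control. In cDC2, Cd81 was at 32.5, 90.8, 18.6 and 18.4 CPM.

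AA467197, a mouse transcript also called Nmes1, was higher in the combination in both main types. It was at 150.1, 203, 366 and 1088 CPM and 7.25 (5.18 to 10.4) times control in the combination, where 38 of 58 cells held it and no cell more than 46 of its 478 UMIs. The ratio was 5.33 in cDC2 and 7.99 in migratory cells, while free RNA held 17.5, 19.9, 27.1 and 61.7 CPM. In YKL-5-124 it was 3.82 (1.83 to 9.21) times control in migratory cells and 0.857 (0.438 to 1.68) times in cDC2. All cells outside the members held 12.7, 15.1, 24.8 and 68.8 CPM of AA467197, also highest in the combination. The part of RNA from other cells in these differences was not tested. Other genes that led the combination rested on fewer cells. Mmp12, an elastase, had 6, 3, 14 and 171 UMIs, the last in 13 of 58 cells with 34 in 1 cell. Hmox1, heme oxygenase, had 1, 4, 2 and 73 UMIs, of which 1 combination cell held 68. Ccl2 had 2, 18, 5 and 63 UMIs with 38 in 1 cell, and Mfge8, a bridge protein for dead cells, 3, 5, 15 and 116 with 52 in 1 cell. Of these 5 genes, AA467197 was seen in the most cells.

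Lilr4b, a leukocyte immunoglobulin-like receptor, and Clec4n, the fungal sensor dectin-2, were higher in both libraries with the CDK7 inhibitor. Lilr4b had 6, 8, 58 and 99 UMIs, in 6, 7, 17 and 23 cells, and was 8.22 (3.56 to 23.3) times control in YKL-5-124 and 9.26 (4.10 to 25.8) times in the combination. Clec4n had 24, 15, 123 and 168 UMIs, ratios of 4.36 (2.80 to 7.06) and 3.93 (2.55 to 6.30), though 1 YKL-5-124 cell held 54. Cd14 was at 223, 189, 673 and 519 CPM. Within cDC2 the ratios in YKL-5-124 and the combination were 6.29 and 11.2 for Lilr4b, 2.81 and 4.59 for Clec4n and 1.83 and 2.27 for Cd14. In all cells outside the members Lilr4b was at 19.8, 30.4, 76.5 and 43.9 CPM and Clec4n at 17.6, 17.5, 40.9 and 42.7 CPM. Free RNA held 16.3, 19.9, 41.9 and 24.8 CPM of Lilr4b and 15.7, 14.7, 31.3 and 35.0 CPM of Clec4n. Outside the members, too, both genes were above control in both libraries with the inhibitor. The part of RNA from other cells was not tested. Of 5 measured pattern recognition genes of 29, 4 were higher in YKL-5-124, 3 in the combination and 0 in anti-PD-1, with none lower, beside 15%, 13.3% and 10.7% of all genes higher. Beside this, the monocyte marker list was at 1712, 1525, 2434 and 2563 CPM in cDC2 and 575, 659, 1179.6 and 939 CPM in free RNA, higher in both libraries with the inhibitor, and its part in these differences was not tested. Creb5, a transcription factor of the CREB family, had 3, 3, 32 and 31 UMIs in 3, 2, 12 and 16 cells, and ratios of 9.08 (2.84 to 46.3) and 5.80 (1.81 to 29.6) in the libraries with the inhibitor. Plet1 had 26, 15, 112 and 113 UMIs in 4, 5, 12 and 11 cells, with 62 in 1 cell of the combination. Rrad, a small GTP-binding protein, had 3, 13, 65 and 16 UMIs and a ratio of 18.4 (6.03 to 91.7) in YKL-5-124. Ccl3, an inflammatory chemokine, was lowest in YKL-5-124 with 75, 44, 14 and 89 UMIs, but the control UMIs came from 6 cells and 1 of them held 34.

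**Figure D5:**
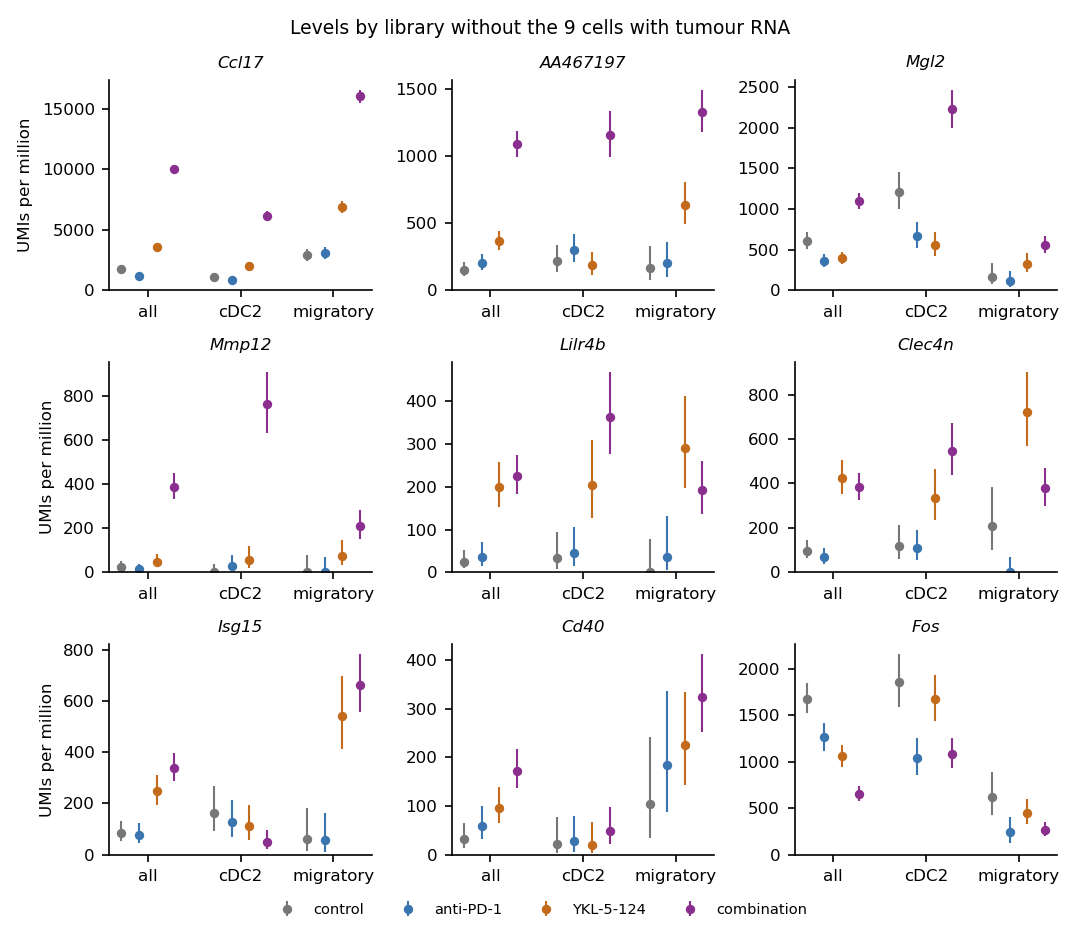
Level of 9 genes in CPM in the 4 libraries, over all 182 members without tumour RNA and in their cDC2 and migratory cells, with exact Poisson 95% intervals that cover counting error only. Over the 182, Ccl17 runs from 1168 CPM in anti-PD-1 to 9974 in the combination, and AA467197 from 150.1 in control to 1088.

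More genes of mature cells were higher than lower over the members as a whole in each treated library, where 10.7%, 15% and 13.3% of all genes were higher and 10.8%, 6.06% and 9.78% lower. Of 36 measured genes of the mature list, 16 were higher and 4 lower in anti-PD-1, 17 and 0 in YKL-5-124 and 24 and 1 in the combination, where the median log2 ratio was 0.72 against 0.03 over all genes. Within cDC2, 19 were measured, and 6 were higher and 8 lower in the combination with a median of -0.32, beside 18.2% and 14.5% of all genes. Over all 191 members, the migratory share was 25.5% in control and 44.8% in the combination, and its part in these counts was not tested.

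Cd40 was at 32.5, 58.6, 96.6 and 173 CPM over the members, and within migratory cells at 3.13 (1.28 to 9.94) times control in the combination. Cd80, a ligand of CD28, was at 36.5, 54.1, 82.8 and 118 CPM, and within migratory cells at 2.41 (0.876 to 9.27) times. Both were highest in the combination over the members. In all cells outside the members Cd40 was at 8.03, 7.65, 10.9 and 15.9 CPM and Cd80 at 5.35, 7.48, 19.1 and 21.3. There, too, both were highest in the combination. The part of RNA from other cells in these levels was not tested. Ccr7 in the combination was at 1.55 (1.32 to 1.83) times control over the members and at 0.681 (0.576 to 0.808) times within migratory cells, so its direction turned with the cells compared. Pdcd1lg2, which encodes the other PD-1 ligand PD-L2, had 5, 3, 8 and 37 UMIs in migratory cells. Cd274 was at 89.3, 45.1, 124 and 121 CPM over the members, and its ratio in the combination was 1.35 (0.808 to 2.33) over the members and 0.511 (0.286 to 0.947) in migratory cells. Ccl5 was at 0.353, 1.30 and 0.607 times control over the members, with 1 cell holding 224 of the 498 control UMIs.

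Of the interferon-stimulated genes, Isg15, Cxcl10, Cxcl9 and Ifit1 are described in migratory cells, where the list was not counted. Isg15, a ubiquitin-like protein, was at 62.4, 55.1, 543 and 665 CPM in migratory cells and at 163, 127, 111 and 49.2 in cDC2. Both libraries with the CDK7 inhibitor were above control in migratory cells, with ratios of 8.70 (2.83 to 43.4) and 10.7 (3.57 to 52.3), and the combination was below control in cDC2, with 0.302 (0.111 to 0.760). The difference between the types was not tested. Cxcl10, a chemokine for cells that carry CXCR3, had 0, 0, 41 and 55 UMIs in migratory cells, in 3 cells of YKL-5-124 and 3 of the combination, and 2, 1, 1 and 0 in cDC2. Cxcl9, of the same family, had 0, 0, 1 and 8 UMIs in migratory cells. Ifit1, which binds foreign RNA, had 0, 0, 13 and 44 in 4 and 3 migratory cells. The cell with the most Isg15 held 27 of 58 UMIs in the YKL-5-124 migratory cells and 34 of 139 in those of the combination. Over the members, 7 of 20 measured genes of the list of 48 were higher and 1 lower in YKL-5-124, 1 and 3 in anti-PD-1 and 4 and 2 in the combination. Of all genes 15% were higher and 6.06% lower in YKL-5-124, 10.7% and 10.8% in anti-PD-1 and 13.3% and 9.78% in the combination. Within cDC2, 3 of 21 were higher and 6 lower in YKL-5-124 and 1 and 7 in the combination, beside 20.5% and 12.0% and 18.2% and 14.5% of all genes. Irf7, a transcription factor of the interferon response, was at 0.205 (0.0772 to 0.464) times control in anti-PD-1, with 1 cell holding 17 of the 38 control UMIs.

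Many early response and heat shock genes were lower in the combination. Of 22 measured genes of 26, 10 were lower and 0 higher, with a median log2 ratio of -0.51, and in cDC2 11 of 21 were lower and 0 higher, with a median of -0.62. Of all genes 9.78% were lower over the members and 14.5% in cDC2. Fos was at 1679.6, 1263, 1059.7 and 655 CPM over the members, and at 0.580 (0.468 to 0.720) times control in the cDC2 of the combination. Hspa1a, an inducible HSP70 chaperone, had 41, 21, 42 and 17 UMIs over the members and 32, 15, 5 and 6 in cDC2. In free RNA Fos was at 1034, 1214, 1101 and 906 CPM and Hspa1a at 46.2, 26.8, 23.8 and 25.6 CPM, so the free RNA of Hspa1a was lower in all treated libraries as well. Ifitm1, a membrane protein that restricts viruses, was at 742, 438, 873 and 81.9 CPM over the members and at 1116, 762, 316 and 30.7 in cDC2, where 4 control cells held all 103 UMIs. Cd209d, a relative of the Cd209a of the rule, had 26, 7, 5 and 6 UMIs in cDC2.

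Several genes of cDC1 were lower over the members in each treated library. Of 9 measured of 25, 5 were lower in anti-PD-1, 5 in YKL-5-124 and 7 in the combination with none higher, where 10.8%, 6.06% and 9.78% of all genes were lower. The cDC1 shares of all 191 members were 21.3%, 13.5%, 4.08% and 6.90%. Whether the share accounts for these levels was not tested. Cadm1 had 30, 9, 7 and 3 UMIs, of which 22, 6, 3 and 3 were in cDC1.

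For antigen presentation, the counts are set beside 10.7%, 15% and 13.3% of all genes higher and 10.8%, 6.06% and 9.78% lower. Of 18 measured class I genes, 3, 0 and 2 were higher in the anti-PD-1, the YKL-5-124 and the combination library and 0, 0 and 1 lower. Of 11 measured class II genes, 0, 1 and 1 were higher and 2, 1 and 3 lower. H2-DMb1 was at 0.629 (0.548 to 0.721) times control in the combination over the members and at 0.967 (0.794 to 1.18) in cDC2. Cdk7 itself, the target of the inhibitor, had 3, 2, 6 and 4 UMIs, too few to compare. Cell cycle genes were seen in few members: in cDC2, Mki67, a marker of dividing cells, had 1, 18, 2 and 6 UMIs, those of anti-PD-1 in 5 cells, and 5 of 6 measured G2 and mitosis genes were higher in anti-PD-1 (16.5% of all genes).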

How the data were processed

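Unfiltered UMI counts per gene and barcode were deposited for 4 libraries as whole numbers. Per the submitters' processing notes the authors used bcl2fastq and Cell Ranger. The notes name the build hg19 although the genes are mouse genes, so the build was not settled, and promoters were taken from RefSeq's mouse table by symbol. Library totals were 17329001 to 22950622 UMIs.

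The members, gene lists and comparisons were chosen with earlier results of these data known. Cells were filtered and chosen as stated above, and UMIs were summed per cell group and library. Cell groups were compared with edgeR 4.0.16 (quasi-likelihood test, TMM scaling, filterByExpr, library as a block) in R 4.3.3, and with DESeq2 1.42.0 as an alternative. A library entered with at least 5 cells of each group, and the fits were tested on simulated data. The planned fits of 3 types could not be run, so migratory cells against cDC2 was added after the data were seen. C1q-rich macrophages had at least 5 C1q UMIs, nonclassical monocytes at least 2 of Treml4, Cd300e and Adgre4, and plasmacytoid dendritic cells at least 2 of Siglech, each with the other gates of the members.

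Treatment ratios used CPM of summed UMIs, with exact conditional binomial intervals at 95% (scipy 1.17.1). Named genes were the 6 highest and 6 lowest log2 ratios per library with at least 100 CPM in either library, 30 UMIs in both and 5 cells, taken over all members and again, after seeing the data, without members with tumour RNA and in cDC2. For types they were the 8 largest and 8 smallest fold changes past the threshold that lay the same way in every library. Up to 4 members of each list were added, with Cdk7, Cd274, Pdcd1lg2, Cxcl9, Cxcl10, Il12b, Ccr7, Irf8, Irf4 and Batf3, and a few other genes were chosen after their values were seen. The values of 1 gene that the rule selects are not reported here. Doublets were scored with scanpy 1.11.5. Its own threshold marked 5, 3, 5 and 2 cells, so an expected rate of 0.8% per 1000 cells was used as an alternative, and no cell was removed from the reported values. Alternatives changed the pseudocount, the minimum level, the scaling, the weight of cells and types, the filter, the block and the libraries.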

Additional observations from a re-analysis of the deposited data

How the results depend on the processing

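With 1 library a group, no treatment difference has a replicate, and the 2 to 26 cells per type and library limit what can be compared within a type. Of 230 recomputed counts and shares, 175 stayed within 1.5 times or the counting interval of the reported value and 55 moved. Of 1008 recomputed ratios of single genes, 988 kept their direction. Of the 1008, 774 were classed as the same, 214 as moved with the direction kept and 20 as reversed.

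The counts of genes past 1.5-fold, over all members, depended on how low values were treated. In anti-PD-1, genes higher and lower were 53 and 58 with a pseudocount of 50 CPM, 1651 and 1417 with no minimum level, 13 and 24 with a minimum of 200 CPM, 245 and 257 with cells weighted equally, 283 and 286 without the members with tumour RNA and 408 and 450 in cDC2. In YKL-5-124 they were 170 and 109, 1673 and 1959 and 71 and 47 under the first 3 settings, and 422 genes were lower with the types weighted alike. In the combination 229 genes were higher with a pseudocount of 50 CPM, and the counts were 1164 and 3704 with no minimum and 102 and 125 with a minimum of 200 CPM. Genes lower in the combination numbered 337 with cells weighted equally, 258 without the members with tumour RNA and 359 in cDC2.

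Among single genes, 20 log2 ratios changed sign. In cDC2 alone those of YKL-5-124 were Mgst1 -2.48, AC160336.1 at 0.081, AA467197 -0.21, Cxcl10 -0.72, Isg15 -0.51, Ifit1 -2.09, Cd40 -0.15, Cadm1 1.51, Cd274 -1.14, Ccr7 -2.50 and Irf4 -0.11. Those of the combination in cDC2 were Lockd 0.69, Isg15 -1.54, Cxcl10 -1.66, Ifit1 -2.09 and Ccr7 -3.32, and that of anti-PD-1 was Irf4 -1.06. With the types weighted alike, Wdfy4 in YKL-5-124 was at 0.75, and in anti-PD-1 Ccl3 at 0.27 and Irf8 at 0.30. The cause of these changes was not tested.

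For migratory cells against cDC2, edgeR without a filter on low counts called 745 and 414 genes higher and lower over all members, 239 genes were higher without the members with tumour RNA, and 123 were lower where a type needed 3 UMIs. Without those members and without a filter 384 genes were lower. Without a filter 542 genes were higher than in macrophages, 1225 lower than in nonclassical monocytes, and 503 and 201 higher and lower than in plasmacytoid cells. DESeq2 called 129 genes higher than in macrophages and 138 and 191 higher and lower than in plasmacytoid cells. Leaving out 1 library at a time gave 15 to 396 higher and 24 to 390 lower for migratory cells against cDC2, and 192 to 236 and 137 to 196 without the members with tumour RNA. It gave 86 to 294 and 165 to 402 against macrophages, 382 to 464 and 620 to 684 against nonclassical monocytes, and 194 to 325 and 181 to 311 against plasmacytoid cells.

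Without the library as a block, 153 and 228 genes were higher and lower in migratory cells over all members and 235 and 197 without those with tumour RNA, 160 and 275 against macrophages, 673 and 860 against nonclassical monocytes and 256 and 300 against plasmacytoid cells, all within 1.5 times of the blocked counts. No paired analysis was possible because each treatment group is 1 library. The planned fits of cDC1, cDC2 and migratory cells together could not be run, since 2 libraries had too few cDC1.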
